A study of Mus musculus with 7 samples.

Results

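Desmosomes are the junctions that rivet keratinocytes to each other, and 8 genes that encode their cytoplasmic plaque, its plakin relatives and the membrane protein Perp were followed in mouse skin without Tuft1. The 8 genes (Dsp, Evpl, Ppl, Jup, Pkp1, Pkp2, Pkp3 and Perp) were chosen by name from a table of 56691 genes. All 8 were present and had enough counts to be tested, among 12888 genes tested. The 3 KO libraries came from skin of healthy appearance of mice 2, 3 and 4, which lacked Tuft1, and the 4 WT libraries from healthy skin of wild-type mice 5, 6, 7 and 8. Each library was 1 mouse. The deleted part of Tuft1, the strain, age, sex and body site are not given in the sources used here, and both groups are untreated as far as the labels say.

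In a desmosome, cadherins of the desmoglein and desmocollin families span the membrane and hold the neighbouring cell. Inside the cell, the armadillo proteins plakoglobin and the plakophilins bind the cadherin tails, and the plakin desmoplakin ties this plaque to keratin filaments. Loss of plaque proteins is known to give fragile skin, woolly hair and thick palms and soles, and the study links tuftelin 1 to the same junction. The comparison of KO with WT skin therefore addresses whether transcripts of the plaque differ when tuftelin 1 is missing.

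KO libraries held 7009237 to 9086523 counts and WT libraries 8490972 to 9256459 counts. The libraries were made with a kit that reads 1 stretch near the 3' end of each polyadenylated transcript, so levels are CPM (counts scaled to a common library size with TMM factors), with no division by transcript length. How evenly the ends of different transcripts were captured was not tested. Tuft1 was at 22.1 ± 6.23 CPM (SD, n = 3) in KO skin and 94.9 ± 26.6 CPM (SD, n = 4) in WT skin. Keratinocyte genes were abundant in every library, with Krt10, a keratin of the upper layers, at 2580 to 4322 CPM in KO and 4286 to 5799 CPM in WT libraries.

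None of the 8 genes differed between KO and WT skin past the threshold in edgeR's quasi-likelihood test, an adjusted p below 0.05 over all 12888 genes, and each of the 8 had an edgeR adjusted p of 0.9997. The background was low as well: 0.0233% of all genes tested were called in either direction (3 genes) and 0.00776% were called lower (1 gene). DESeq2 and limma-voom also called 0 of the 8. In edgeR, Tuft1 itself missed the threshold too (log2 fold change -2.10, edgeR adjusted p = 0.172). Missing it therefore does not show that a transcript is unchanged. Ppl, the gene of periplakin, was the 1 member with an unadjusted p below 0.05 in edgeR, in DESeq2 and in limma-voom, and was lower in KO skin. In edgeR, 2.59% of all genes tested were lower at that unadjusted p, and 4.31% lay past it in either direction. The log2 fold change was below 0 for 7 of the 8 genes, against 50.5% of all genes tested, and its median was -0.26 over the 8 genes and -0.01 over all genes. Ppl and Perp were the 2 members with all 3 KO libraries below all 4 WT libraries, a pattern that 3.45% of all genes tested showed, while 6.89% had no overlap in either direction.

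**Figure D1:**
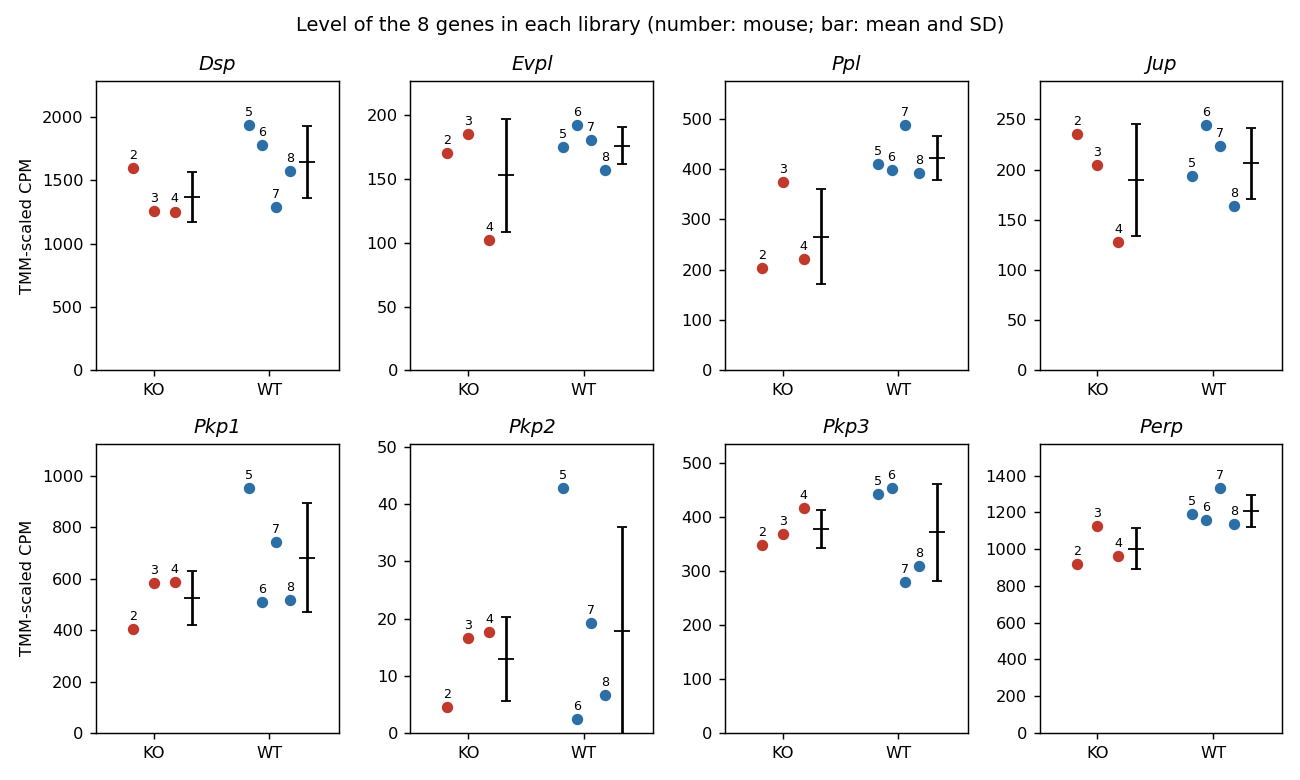
Level of each of the 8 genes in TMM-scaled CPM (vertical axes start at 0 and differ between panels), with 1 point per library labelled by mouse number, KO left of WT, and the mean and SD as a black bar. The SD bar of WT Pkp2 is longer than its mean and is cut off at 0. Groups are separate for Ppl and, narrowly, for Perp, and overlap in the other 6 panels.

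Levels spanned a wide range. In WT skin, Dsp was highest at 1645 ± 281 CPM (SD, n = 4), position 50 of the 12888 genes, and Perp followed at 1205 ± 87.8 CPM, position 76. Next came Pkp1 at 681 ± 212 CPM, Ppl at 422 ± 44.2 CPM, Pkp3 at 372 ± 89.6 CPM, Jup at 206 ± 35.1 CPM and Evpl at 176 ± 14.7 CPM. Pkp2 was last at 17.8 ± 18.2 CPM, position 7078. Not every step in this order stood clear of the spread: Dsp was above Perp in 6 of 7 libraries, with WT mouse 7 the exception, and Ppl was above Pkp3 in only 3 of 7. The other 5 neighbouring pairs kept their order in all 7 libraries, although the WT ranges of Jup and Evpl overlapped. Dsp supplied 35.2 ± 5.38% of the counts of the 8 genes in KO and 34.8 ± 4.37% in WT libraries, and Perp 25.7 ± 1.85% in KO and 25.7 ± 3.01% in WT libraries.

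Dsp encodes desmoplakin, the plakin that anchors keratin filaments in the plaque. It lies on chromosome 13 at 38335270 to 38382553 on the plus strand (mm39, ENSMUSG00000054889.11). Dsp stood at 1596, 1259 and 1254 CPM in KO mice 2, 3 and 4, and at 1936, 1783, 1286 and 1573 CPM in WT mice 5, 6, 7 and 8. KO mouse 2 lay among the WT mice, and WT mouse 7 lay beside the 2 lower KO mice, so the groups overlapped. Between the groups the log2 fold change was -0.26 (SE 0.20), and its 95% interval allows KO levels from 61.4% to 113% of WT. Dsp shares exon sequence with 1 other annotated gene on the opposite strand, Gm10129, which held 0 counts.

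Ppl encodes periplakin, and Evpl encodes envoplakin, its dimer partner. Both are plakins that reach from the desmosomal plaque into the cornified envelope, the crosslinked protein shell of the outer epidermis. Ppl (ENSMUSG00000039457.5, chromosome 16, 4904155 to 4950285, minus strand) stood at 202, 374 and 220.3 CPM in KO mice 2, 3 and 4, and at 409, 399, 487 and 392.2 CPM in WT mice 5, 6, 7 and 8. The 2 lowest libraries were KO mice 2 and 4, while KO mouse 3 lay just under the lowest WT mouse. KO skin held 63.0% of the WT level. The log2 difference fitted by edgeR was -0.67 (SE 0.25), with a 95% interval of -1.20 to -0.13. Its edgeR p was 0.0185 unadjusted, with an adjusted p of 0.9997, and Ppl took position 236 of the 12888 genes in the order of p. By exact permutation of the CPM values (two-sided) p was 0.0286, the smallest that the 35 splits of 7 mice allow, and 8 genes were tested in this way. Leaving out 1 mouse at a time moved the log2 fold change between -0.998 (without KO mouse 3) and -0.51 (without KO mouse 2), and the unadjusted p was above 0.05 without KO mouse 2 or 4.

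Evpl (ENSMUSG00000034282.4, chromosome 11, 116111385 to 116128903, minus strand) stood at 170.5, 186 and 102 CPM in KO mice 2, 3 and 4. In WT mice 5, 6, 7 and 8 it stood at 175, 192, 181 and 157 CPM. KO mouse 4 was the lowest of all 7, and KO mice 2 and 3 lay within the WT range. Its log2 fold change was -0.21 (SE 0.26), and 0.0096 without KO mouse 4.

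**Figure D2:**
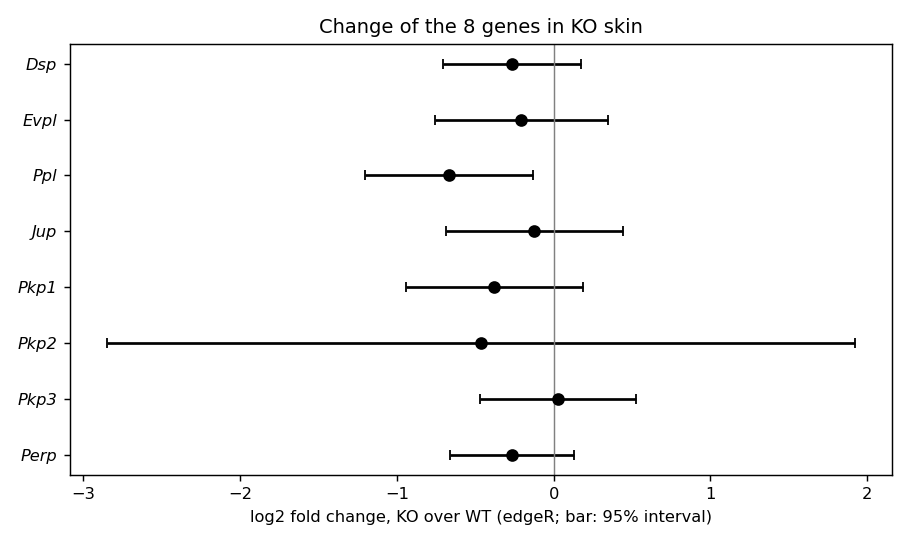
Log2 fold change of each of the 8 genes in KO over WT skin (horizontal axis), with the 95% interval from edgeR's quasi-likelihood fit as a bar. The interval of Ppl, -1.20 to -0.13, lies below 0 before adjustment over all genes, and the other 7 intervals include 0, widest for Pkp2.

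Jup encodes plakoglobin, the armadillo protein that couples desmosomal cadherins to desmoplakin and also joins adherens junctions. Jup (ENSMUSG00000001552.15, chromosome 11, 100259784 to 100288589, minus strand) stood at 236, 204 and 128 CPM in KO mice 2, 3 and 4, against 193, 244, 223 and 164 CPM in WT mice 5, 6, 7 and 8. Only KO mouse 4 lay outside the WT range. Jup had a log2 fold change of -0.12 (SE 0.26), with KO levels from 62.0% to 136% of WT inside its 95% interval, and the sign turned without KO mouse 4 (0.090).

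The plakophilins are armadillo proteins that gather desmoplakin at the plaque. Pkp1, the plakophilin most typical of the upper epidermal layers, stood at 403, 582 and 587 CPM in KO mice 2, 3 and 4, and at 954, 509, 744 and 517 CPM in WT mice 5, 6, 7 and 8 (ENSMUSG00000026413.13, chromosome 1, 135799133 to 135846945, minus strand). WT mice 5 and 7 were well above the rest, and WT mice 6 and 8 were below KO mice 3 and 4. For Pkp1 the log2 fold change was -0.38 (SE 0.26), and it was -0.17 without WT mouse 5 and -0.22 without KO mouse 2.

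Pkp3, which is found through all living layers of the epidermis, stood at 348, 369 and 417 CPM in KO mice 2, 3 and 4, and at 442, 454, 280 and 310.3 CPM in WT mice 5, 6, 7 and 8 (ENSMUSG00000054065.13, chromosome 7, 140658131 to 140670423, plus strand). The KO values lay inside the WT range. Its log2 fold change was 0.02 (SE 0.23), with KO levels from 72.1% to 144% of WT inside its 95% interval. Pkp3 was the only member of the 8 with a log2 fold change above 0, and its sign turned without KO mouse 4 (-0.06), WT mouse 7 (-0.09) or WT mouse 8 (-0.05).

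Pkp2, the plakophilin of the heart and of simple epithelia, stood at 4.53, 16.6 and 17.6 CPM in KO mice 2, 3 and 4, and at 42.9, 2.36, 19.3 and 6.68 CPM in WT mice 5, 6, 7 and 8 (ENSMUSG00000041957.16, chromosome 16, 16031182 to 16090576, plus strand). The range over the WT mice was 18.1-fold, the widest of the 8 genes, and enclosed all KO values. Its raw counts were 35, 148 and 134 in KO and 398, 21, 157 and 54 in WT libraries, so every library was above the floor of 3 counts. For Pkp2 the log2 fold change was -0.46 (SE 1.10), and a KO level anywhere from 13.9% to 379% of WT lies inside its 95% interval. Among the 3 plakophilins, Pkp2 made up 1.35 ± 0.65% of the counts in KO and 1.47 ± 1.21% in WT libraries, and Pkp1 made up 57.0 ± 3.41% in KO and 63.1 ± 7.90% in WT libraries.

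Perp, a tetraspan membrane protein of desmosomes that is a target of the epidermal regulator p63, was the steadiest of the 8 genes among WT mice, with a coefficient of variation of 7.28%. Perp (ENSMUSG00000019851.9, chromosome 10, 18720768 to 18732821, plus strand) stood at 920.3, 1128 and 961 CPM in KO mice 2, 3 and 4. In WT mice 5, 6, 7 and 8 it stood at 1190.1, 1160.3, 1333 and 1138 CPM. All 3 KO mice were below all 4 WT mice, but KO mouse 3 was only just under WT mouse 8. KO skin held 83.2% of the WT level (log2 fold change -0.27, SE 0.18). For Perp the edgeR p was 0.170 unadjusted and 0.9997 adjusted, and its interval allows KO levels from 63.3% to 109% of WT. The exact two-sided permutation p of the CPM values was 0.0286, again the smallest possible, without adjustment over the 8 genes. On CPM of raw library totals this permutation p was 0.0857. There KO mouse 3 at 1108 CPM and WT mouse 8 at 1083 CPM changed places.

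Added up, the 8 genes reached 3880, 4119 and 3687 CPM in KO mice 2, 3 and 4, and 5343, 4744, 4553 and 4259 CPM in WT mice 5, 6, 7 and 8. The KO sums lay below the WT sums, and Dsp and Perp were the largest parts of them. As a share of all counts the groups almost met. The shares were 0.382%, 0.405% and 0.400% in KO libraries and 0.536%, 0.489%, 0.423% and 0.405% in WT libraries. KO mouse 3 (0.4047%) lay just under WT mouse 8 (0.4053%). How often sums of other genes separate in this way was not counted.

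The low values did not fall on the same KO mouse for all members. KO mouse 2 was the lowest of the 7 libraries for Pkp1, Perp and Ppl, and KO mouse 4 for Jup, Dsp and Evpl, while KO mouse 3 was the lowest for 0 of the 8. WT mouse 5 was highest for Pkp1, Pkp2 and Dsp, WT mouse 6 for Jup, Pkp3 and Evpl, and WT mouse 7 for Perp and Ppl. Over the 7 libraries, Jup and Evpl had the most similar profiles of the 28 pairs, with a root mean square difference of 0.13 between their centred log2 CPM values. Ppl and Evpl, which encode dimer partners, came 11th by this measure, at 0.36. The 7 largest differences, from 0.99 to 1.44, were all pairs with Pkp2. Besides the members, 3478 genes had a mean of at least 50 CPM. With predicted gene models left out of the ranking, Dusp22, Susd2, Anxa8, Ralgds and Emp2 were closest to the mean profile of the 8, at 0.06 to 0.11. That mean profile leans on Pkp2, whose centred values ran from -2.10 in WT mouse 6 to 1.95 in WT mouse 5. Pkp2 itself stood 1.11 from it, so closeness to the mean profile is not closeness to each member.

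**Figure D3:**
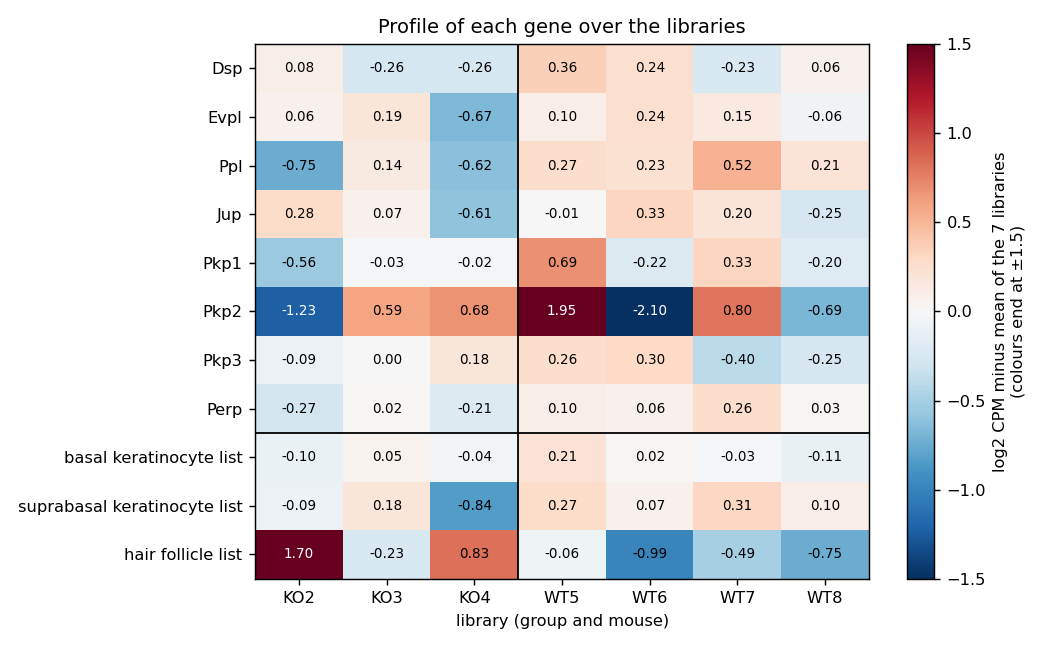
Log2 CPM of each of the 8 genes minus its mean over the 7 libraries (colour and printed value), with the same for the mean log2 CPM of 3 marker lists below the line. KO libraries are left of the vertical line. KO mouse 4 is low for Evpl, Ppl, Jup and the suprabasal list, and KO mouse 2 is low for Pkp2, Ppl and Pkp1. Pkp2 is lowest in WT mouse 6. The hair follicle list is highest in KO mice 2 and 4.

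Ratios between members within a library do not depend on how libraries are scaled, and 6 were compared. Ppl gave 1.19, 2.02 and 2.15 counts per Evpl count in KO mice 2, 3 and 4, against 2.34, 2.07, 2.70 and 2.495 in WT mice 5, 6, 7 and 8. KO mouse 2 stood far below the others, and KO mouse 4 lay above WT mouse 6. The mean log2 ratio was lower by 0.47 in KO skin (difference -0.47, exact two-sided permutation p = 0.0857, adjusted over the 6 ratios 0.514), and the difference was -0.20 without KO mouse 2. Pkp1 to Pkp3 differed by -0.40 on the log2 scale (exact permutation p = 0.257, adjusted 0.771). The ratios Pkp2 to Pkp1, Dsp to Jup, Dsp to Pkp1 and Perp to Dsp differed by 0.39, -0.10, 0.09 and -0.01 on the log2 scale, with exact permutation p of 0.714 to 0.971. Perp gave 0.734 counts per Dsp count in KO and 0.740 in WT skin as geometric means.

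**Figure D4:**
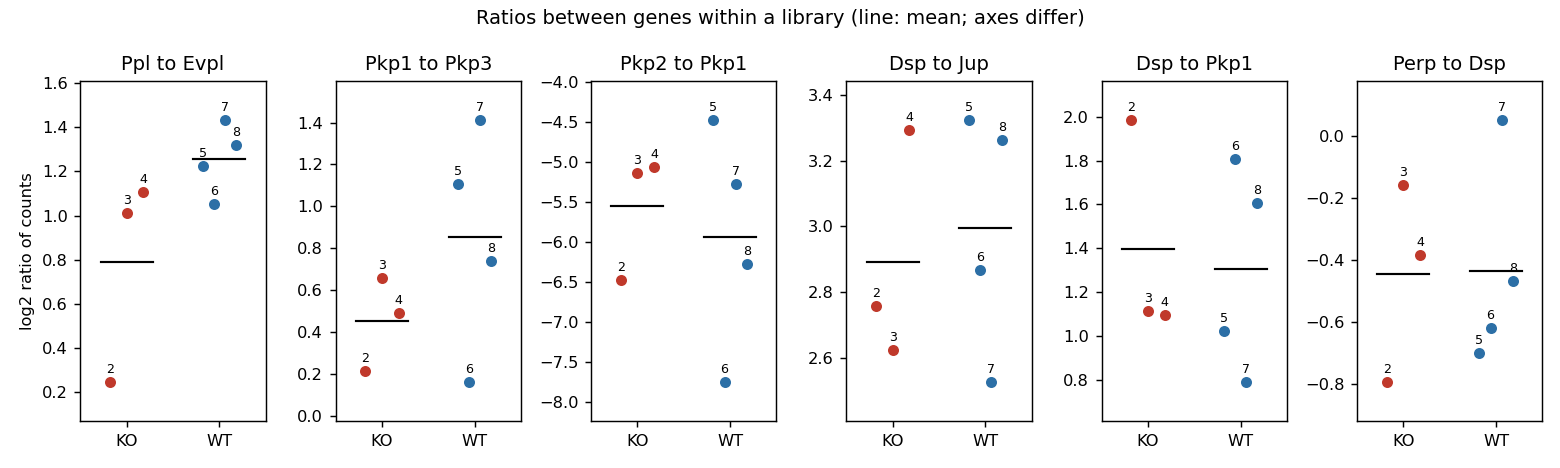
Log2 ratio of the counts of 2 members within each library (vertical axes differ between panels), with 1 point per library labelled by mouse number, KO left of WT, and a line at the mean. In the Ppl to Evpl panel, KO mouse 2 lies far below the other 6 libraries.

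Whole skin was measured, so fewer keratinocytes and less RNA of a gene per keratinocyte cannot be told apart. The 11 tested genes of the basal keratinocyte list had a median log2 fold change of 0.12, 0 of 11 called, and summed levels of 8463 to 11647 CPM in KO and 7668 to 10540.2 CPM in WT libraries. The suprabasal list, with 11 of 12 genes tested and 0 called, had a median of -0.38, and its summed level was 9046 CPM in KO mouse 4, 13176 and 14501 CPM in the other KO mice and 12944 to 16511 CPM in WT libraries. Its 1 untested gene, the keratin Krt2, had 0 counts in 6 of the 7 libraries. Set against the mean log2 CPM of the basal list, Ppl differed by -0.66 between KO and WT skin, with overlapping groups (exact permutation p = 0.0571). Set against the suprabasal list the difference was -0.28 (exact permutation p = 0.314). The other 7 members differed by -0.29 to 0.11 against the basal list (exact permutation p from 0.114 to 0.971). Against the suprabasal list they differed by 0.09 to 0.49 (exact permutation p from 0.143 to 0.80). The mean log2 CPM of the suprabasal list gives sparse genes full weight. Among these, Sbsn was at 0.52, 3.47 and 0 CPM in KO mice 2, 3 and 4 and at 5.28 to 14.7 CPM in WT mice. Grhl3 was at 0.92 CPM in KO mouse 4. How far such genes set the differences against this list was not tested.

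Hair follicle genes were at higher summed levels in all 3 KO libraries than in all 4 WT libraries, at 2112, 1272 and 2021 CPM in KO mice 2, 3 and 4 and 811 to 1145 CPM in WT mice. Of the 16 genes listed, 8 were tested and 0 were called, with 7 above and 1 below 0, a median log2 fold change of 1.63 and 4 genes at an unadjusted edgeR p below 0.05. KO mouse 2 stood apart in listed genes that were too sparse to test. The inner root sheath keratins Krt25, Krt27, Krt28, Krt71 and Krt73 had 1030, 494, 44, 948 and 296 counts there and 0 in each of the other 6 libraries. These keratins and Krt2 were named after their values were seen. The part of hair follicle content in the member levels was not tested. Without KO mouse 2, Ppl was at a log2 fold change of -0.51, Pkp1 at -0.22, Perp at -0.21, Pkp2 at -0.06 and Pkp3 at 0.08. Jup, Dsp and Evpl moved further below 0 without this mouse, to -0.32, -0.39 and -0.29. The median over the 8 genes was -0.26 both with and without KO mouse 2, as members moved in both directions. Hair follicle sums were also above all WT libraries in KO mice 3 and 4. Leaving out KO mouse 2 therefore does not remove the difference in hair follicle genes, and the unchanged median is no test of it. Fat cell genes were lower in KO skin in 12 of 12 tested genes, with 0 called, a median of -1.43 and a sum of 8394 to 10653 CPM in KO and 15396 to 23700 CPM in WT libraries. The part of this in the member levels was not tested either.

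The membrane partners of the plaque were read from a list of 9 desmosomal cadherins, of which 7 were tested and 0 called in either direction, with 3 above and 4 below 0 and a median log2 fold change of -0.18. Dsg1a, a desmoglein of the upper layers, was at 390.2 ± 49.3 CPM in KO and 504 ± 51.4 CPM in WT skin (log2 fold change -0.37, SE 0.20), and Dsg3, a desmoglein of the lower layers, at 70.9 ± 17.9 CPM in KO and 46.6 ± 19.9 CPM in WT skin (log2 fold change 0.61, SE 0.41). Desmoglein copies are closely similar in the mouse, so the assignment of Dsg1a reads is uncertain. Summed cadherin levels overlapped, at 703 to 717 CPM in KO and 689 to 920 CPM in WT libraries.

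Among 9 other armadillo and plakin genes, all tested, 0 were called, 4 were above and 5 below 0, and the median was -0.03. Ctnnd1, the gene of p120-catenin in adherens junctions, was at 354 ± 30.2 CPM in KO and 274 ± 35.2 CPM in WT skin (log2 fold change 0.37, SE 0.20). Eppk1, the gene of the keratin-binding plakin epiplakin, was at 255 ± 102 CPM in KO and 359 ± 97.5 CPM in WT skin (log2 fold change -0.50, SE 0.31). Ctnnb1, the gene of beta-catenin, which epithelial cells use throughout, was at only 1.00 CPM on average in KO and 3.71 CPM in WT skin, and was named after its values were seen. A low count in these libraries therefore does not show that a gene is little expressed, a limit that also applies to Pkp2.

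Of 12 desmosome partners and regulators, all tested, 0 were called, 4 were above and 8 below 0, and the median was -0.24. Tuft1 had the smallest p (log2 fold change -2.10, SE 0.39, edgeR adjusted p = 0.172), followed by Ndel1, the gene of a dynein regulator that desmoplakin brings to the cell cortex. Ndel1 was at 315 ± 78.1 CPM in KO and 483 ± 145 CPM in WT skin (log2 fold change -0.62, SE 0.27). Trp63, the gene of the p63 regulator upstream of Perp, was at 100.1, 104 and 78.5 CPM in KO mice 2, 3 and 4 and at 206, 107, 88.9 and 162 CPM in WT mice 5, 6, 7 and 8. Its groups overlapped, and the gene was named for its tie to Perp after its values were seen.

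On the filament side, 6 of 7 listed keratins were tested, 0 were called, 3 were above and 3 below 0, and the median was 0.06. Krt10 was at 3529 ± 881 CPM in KO and 4954 ± 657 CPM in WT skin (log2 fold change -0.49, SE 0.21), and Krt77, another keratin of the upper layers, at 3509 ± 1235 CPM in KO and 4873 ± 716 CPM in WT skin (log2 fold change -0.47, SE 0.24). Krt1, the partner of Krt10 in the upper layers, was at 1564 ± 370.3 CPM in KO and 1389 ± 290.5 CPM in WT skin, on the other side of 0 (log2 fold change 0.17). Krt1 was chosen after its values were seen. Krt10 and Krt77, and likewise Dsg1a, Dsg3, Ctnnd1, Eppk1 and Ndel1, had an edgeR adjusted p of 0.9997.

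Among partners of periplakin and envoplakin in the cornified envelope, 10 of 13 listed genes were tested, 0 were called, and the median was -0.39, with 4 above and 6 below 0. Flg, which encodes the filament-bundling protein filaggrin, was at 146 ± 20.8 CPM in KO and 68.5 ± 15.3 CPM in WT skin (log2 fold change 1.09, SE 0.28, edgeR adjusted p = 0.519). Lor, which encodes loricrin, the main envelope protein, was at 4065 ± 384 CPM in KO and 6170 ± 1385 CPM in WT skin (log2 fold change -0.60, SE 0.21, edgeR adjusted p = 0.979).

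**Figure D5:**
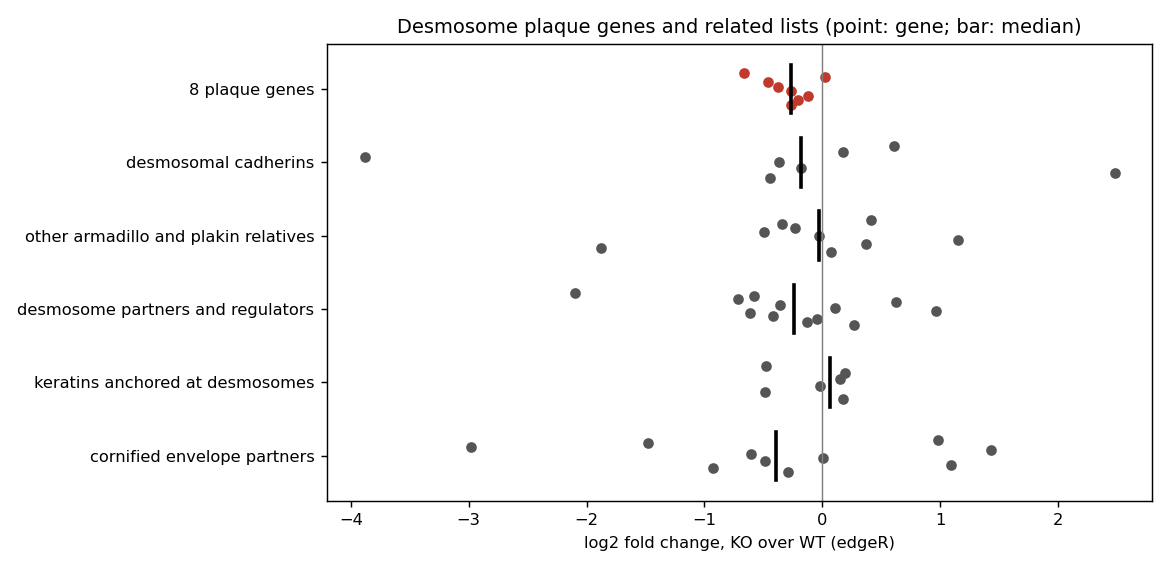
Log2 fold change in KO over WT skin (horizontal axis) of the 8 plaque genes (red) and of the tested genes of 5 related lists (grey), 1 point per gene and a bar at each list's median. The 8 plaque genes lie between -0.67 and 0.02, and 0 genes of these lists passed the test.

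Spread among mice differed widely within the group, and Pkp2 varied most, with a coefficient of variation of 56.4% in KO and 102% in WT mice. The median coefficient of variation was 24.5% in KO and 17.1% in WT mice over the 8 genes, and 22.1% in KO and 21.3% in WT mice over the 1710 genes whose WT mean reached 100 CPM, a set that Pkp2 is too low to enter.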

How the data were processed

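Transcripts were counted in skin of 7 mice, 3 KO and 4 WT, grouped by the titles in the labels. Per the labels, RNA was extracted with TRIzol from powdered frozen tissue, and libraries were made with the QuantSeq 3' kit. The deposited table holds raw counts per gene on mm39. Tools named without their roles in the submitters' processing notes are featureCounts, edgeR 3.36.0, STAR, Subread 2.0.3 and GATK 4.2.4.0. Whether strand was used in counting is not stated in the labels. A second table holds log2 values normalized by the authors for 12954 genes, the 8 members among them. Within 1e-09 these were recovered from the counts by edgeR (log2 CPM, TMM, prior count 2), and the table served only as an alternative gene set.

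Counts were compared in edgeR 4.0.16 under R 4.3.3 with its expression filter (minimum count 10), TMM factors, the quasi-likelihood F test and Benjamini-Hochberg adjustment over all 12888 genes tested. Intervals of fold changes cover 95% under that fit. Single values were compared by exact permutation over 35 splits. Counts of 3 correspond to 0.323 to 0.395 CPM by library, a limit for counting error only. The scripts were tested on simulated data. The edgeR p-values set the group difference against a spread between mice that is estimated with help from all genes tested. The permutation p-values set it against the other splits of the same mice. The members and the gene lists were chosen with earlier results of these data known. The rule for named genes took the 8 members, Tuft1, the 2 genes with the smallest p in each list and the 5 genes closest in profile, of which not all are printed. Outside this rule, Ctnnb1, Trp63, Krt1, Krt2 and 5 hair keratins are named, chosen after their values were seen. Alternatives were DESeq2 1.42.0, limma-voom (limma 3.58.1), other scaling and filters, and leaving out each mouse.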

Additional observations from a re-analysis of the deposited data

How the results depend on the processing

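No member was called under any of the 13 alternative fits of the whole table, which gave 0 of the 8 genes each time. The number of genes called in all moved more, to 76 without a filter on low counts, 101 with DESeq2 and 22 with limma-voom, against 3 in the fit reported, and ran from 0 to 1 with 1 mouse left out. The members with KO libraries all below WT libraries numbered 1 with RLE factors and 1 with raw library totals, against 2. Both counts were added after seeing the data, and the number ran from 2 to 3 with 1 mouse left out. In the fit reported, 3.45% of all genes tested showed this pattern. That share was not counted under the other settings, and fewer mice separate more easily. These counts therefore cannot be compared with the 2 of the fit reported. The Perp level difference on raw totals was -159 CPM (exact permutation p = 0.0857).

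Ppl, Perp, Dsp and Pkp1 kept a log2 fold change below 0 in all 13 fits, with Ppl between -0.998 and -0.51 and its adjusted p between 0.230 (DESeq2) and 0.99999. Signs turned for Pkp2 with limma-voom (0.041) and without WT mouse 5 (0.45), for Pkp3 without KO mouse 4 (-0.06), WT mouse 7 (-0.090) or WT mouse 8 (-0.05), and for Jup (0.090) and Evpl (0.0096) without KO mouse 4. With 1 mouse left out, the range was -0.32 to 0.090 for Jup, -0.50 to -0.17 for Pkp1 (-0.17 without WT mouse 5), -0.84 to 0.45 for Pkp2, -0.090 to 0.13 for Pkp3 and -0.37 to 0.0096 for Evpl. Set against suprabasal in place of basal keratinocyte genes, the differences were 0.29 for Jup, 0.091 for Pkp1, 0.18 for Dsp, 0.17 for Perp and 0.19 for Evpl. Each was of the other sign, and the cause was not tested. The sparse genes Sbsn and Grhl3 enter the suprabasal mean at full weight. With 3 against 4 mice the exact test cannot go below 0.0286, and with 1 mouse left out it cannot pass the threshold, so those values carry no test. No paired analysis was made because the labels name no pairs of KO and WT mice.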

Other observations

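Other compartments of the skin, read as summed levels of marker lists with 0 genes called in each, differed in how far KO and WT libraries overlapped. Sebaceous gland genes (9 of 10 tested, median log2 fold change 0.91) summed to 1817 to 4084 CPM in KO and 1549 to 2288 CPM in WT libraries. Skeletal muscle genes (9 of 10 tested, median 0.36) summed to 15267 to 24842 CPM in KO and 15086 to 20697 CPM in WT libraries, and cardiac muscle genes, markers of a tissue rich in Pkp2, to 32.9 to 58.2 CPM in KO and 11.8 to 88.4 CPM in WT libraries (4 of 6 tested, median 0.36). Fibroblast genes (8 of 8 tested, median 0.46) reached 30236 CPM in KO mouse 2, against 11330 and 16138 CPM in the other KO mice and 10978 to 18769 CPM in WT libraries. Endothelial genes (9 of 10 tested, median -0.88) summed to 132 to 158 CPM in KO and 151 to 240.1 CPM in WT libraries, and leukocyte genes (8 of 8 tested, median 0.09) to 1030.2 to 1753 CPM in KO and 963 to 1361 CPM in WT libraries. Melanocyte genes (5 of 7 tested, median 0.77) summed to 73.3 to 95.1 CPM in KO and 4.05 to 63.4 CPM in WT libraries. Immediate early genes (12 of 12 tested, median -1.30) summed to 1375 to 1548 CPM in KO and 1646 to 5856 CPM in WT libraries, and erythrocyte genes (4 of 5 tested, median -0.95) to 250.1 to 758 CPM in KO and 456 to 1451 CPM in WT libraries.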
